A study of Drosophila melanogaster with 3 samples.

Results

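Of the 3123 binding sites that the authors retained for the CG1647-GFP fusion protein, 644 (20.6%, exact 95% interval 19.2 to 22.1) lay in introns, near a gene start but outside the promoter. A site was taken as intronic when its summit, the highest point of the peak, was inside a protein-coding gene and in no annotated exon. It also had to lie more than 500 bp and at most 5 kb from the nearest transcript 5′ end (TSS) of any protein-coding gene. The members were thus chosen by the authors' peak calls and by position. Signal, rank and retention among candidates are therefore given as descriptions, with no test, and only sequence and position within the gene were tested. All samples formed 1 group: whole Drosophila melanogaster embryos of 0 to 24 h, male and female together, from a transgenic line in which CG1647 carries GFP at its C terminus. The fusion protein was precipitated with an antibody against GFP from sonicated chromatin, in 3 biological replicates. Embryos of every stage and tissue were pooled, so a site cannot be assigned to a cell type, and no untagged or otherwise treated embryos were compared.

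CG1647 was assayed as a transcription factor, a protein that binds DNA and acts on the genes nearby. Introns near the start of a Drosophila gene, above all the opening intron, are known to hold many enhancers and alternative promoters. They are transcribed but spliced out, so their sequence is free to carry regulatory elements without changing the protein. The sites are therefore shown with their sequence before their values are described.

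Summit windows of 8 sites are shown, since the results turn on a short word within them and on its place relative to the summit. They span 250 bases centred on the summit, read 5′ to 3′ from the RefSeq copy of the release 6 genome (dm6), and capitals mark the 5-base word CAGTG or its reverse complement CACTG. The windows of ush, CG11050, Lk6, CG32772, CG9663 and Tlk belong to sites ranked 1, 2, 3, 4, 5 and 7 by signal among the 644. The window of NFAT was added after its values were seen, as a further strong site with the word on both sides of the summit. That of CHES-1-like was added because its 200 bp around the summit hold 4 copies, the most at any of the 644 sites.
ush, chr2L:480968-481217, plus strand: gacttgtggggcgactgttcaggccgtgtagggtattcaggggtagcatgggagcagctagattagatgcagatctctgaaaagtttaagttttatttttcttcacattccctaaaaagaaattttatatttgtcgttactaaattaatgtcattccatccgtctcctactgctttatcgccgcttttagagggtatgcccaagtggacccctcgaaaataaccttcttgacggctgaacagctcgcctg
CG11050, chr2L:6612594-6612843, plus strand: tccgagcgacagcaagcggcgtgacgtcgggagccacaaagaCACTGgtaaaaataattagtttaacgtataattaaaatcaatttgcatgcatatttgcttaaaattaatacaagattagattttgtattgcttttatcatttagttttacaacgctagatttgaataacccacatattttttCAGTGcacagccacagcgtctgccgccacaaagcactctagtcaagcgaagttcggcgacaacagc
Lk6, chr3R:11760930-11761179, plus strand: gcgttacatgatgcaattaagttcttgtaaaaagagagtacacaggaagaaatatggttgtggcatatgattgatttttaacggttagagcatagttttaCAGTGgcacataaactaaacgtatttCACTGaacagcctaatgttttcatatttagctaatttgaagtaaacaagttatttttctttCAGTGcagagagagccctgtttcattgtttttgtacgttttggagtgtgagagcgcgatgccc
CG32772, chrX:4910253-4910502, plus strand: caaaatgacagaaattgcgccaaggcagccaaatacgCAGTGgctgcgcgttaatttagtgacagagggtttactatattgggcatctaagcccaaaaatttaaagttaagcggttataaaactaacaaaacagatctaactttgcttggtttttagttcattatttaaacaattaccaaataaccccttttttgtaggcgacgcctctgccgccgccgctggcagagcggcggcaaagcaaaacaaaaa
CG9663, chr2L:3302059-3302308, plus strand: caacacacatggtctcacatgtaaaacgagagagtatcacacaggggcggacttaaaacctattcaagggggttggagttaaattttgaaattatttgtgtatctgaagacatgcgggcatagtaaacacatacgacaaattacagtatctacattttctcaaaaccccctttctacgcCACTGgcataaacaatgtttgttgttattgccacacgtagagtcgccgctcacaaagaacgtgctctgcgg
Tlk, chrX:3742099-3742348, plus strand: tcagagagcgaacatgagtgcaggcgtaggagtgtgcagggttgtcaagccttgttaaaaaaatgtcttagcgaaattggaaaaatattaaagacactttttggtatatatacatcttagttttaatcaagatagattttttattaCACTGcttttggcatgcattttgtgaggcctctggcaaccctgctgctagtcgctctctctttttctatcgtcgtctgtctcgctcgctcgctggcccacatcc
NFAT, chrX:13640407-13640656, plus strand: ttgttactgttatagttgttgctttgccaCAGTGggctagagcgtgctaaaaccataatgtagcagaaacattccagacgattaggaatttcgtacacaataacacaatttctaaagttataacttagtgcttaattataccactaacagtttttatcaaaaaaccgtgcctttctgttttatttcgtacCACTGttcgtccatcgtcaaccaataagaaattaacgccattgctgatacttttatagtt
CHES-1-like, chrX:7700287-7700536, plus strand: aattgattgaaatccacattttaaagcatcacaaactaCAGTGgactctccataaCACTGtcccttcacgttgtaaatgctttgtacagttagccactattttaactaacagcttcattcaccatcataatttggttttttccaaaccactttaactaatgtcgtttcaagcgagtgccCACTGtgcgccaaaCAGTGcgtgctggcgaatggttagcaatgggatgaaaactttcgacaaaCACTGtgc
The window in ush, the site with the highest signal, held no copy of the word. In CG11050, Lk6, NFAT and CHES-1-like copies stood on both sides of the summit.

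The bases beside the word varied from site to site. The next 8 sequences, from strong sites, are 25 bases long and centred on a copy that lay 50 to 125 bp from the summit, turned so that the word, in capitals, reads CAGTG.
CG11050, chr2L:6612768-6612792, plus strand: catattttttCAGTGcacagccaca
Lk6, chr3R:11761107-11761131, plus strand: atttttctttCAGTGcagagagagc
CG32772, chrX:4910280-4910304, plus strand: gccaaatacgCAGTGgctgcgcgtt
CG9663, chr2L:3302228-3302252, minus strand: ttgtttatgcCAGTGgcgtagaaag
Trl, chr3L:14759390-14759414, plus strand: aaaccaagcaCAGTGggatacaaaa
Raf, chrX:2297786-2297810, minus strand: gcagcaggtaCAGTGaacaccgaac
NFAT, chrX:13640587-13640611, minus strand: gatggacgaaCAGTGgtacgaaata
CG31635, chr2L:6647102-6647126, plus strand: ttcgaacgcaCAGTGggcccagcca
Over all 518 copies in the 200 bp summit windows, the second base after the word was A at 47.3%, the sixth base before it was T at 45.0%, and the base just before it was A at 42.3%. At the 214 copies in the flanking windows those shares were 35.5%, 29.4% and 29.9%. These shares were looked up after the word had been found and were not tested.

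A longer word, ACAGTGAA, was the 8-base word that passed the search given in the next paragraph, and 1 strong site that holds it is shown. It lies in an intron of Raf, the kinase gene of the receptor tyrosine kinase cascade. The window is given in the same way, with the 8-base word in capitals as its reverse complement.
Raf, chrX:2297605-2297854, plus strand: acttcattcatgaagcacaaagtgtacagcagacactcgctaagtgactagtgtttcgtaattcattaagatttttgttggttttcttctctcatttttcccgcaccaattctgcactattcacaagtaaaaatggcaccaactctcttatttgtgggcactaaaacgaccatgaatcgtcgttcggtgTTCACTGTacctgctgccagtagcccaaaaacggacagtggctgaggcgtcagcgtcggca
The CAGTG within it was centred 68 bp from this summit.

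The word was found by a search that divided the genome. On arms 2L and 2R, words were put in order by how often they stood in the summit window and not in the flanking window, which was 200 bp long and centred 500 bp further from the TSS. The 10 best were then tested on the remaining arms, with 430 sites. Among 8-base words 1 passed, ACAGTGAA, present at 19 of 430 summits (4.42%) and in 3 flanks (0.698%). Its summit-only to flank-only ratio was 5.57 (exact McNemar adjusted p = 0.00855). It contains CAGTG. When the search was run with 6-base words, 4 of 10 passed, led by ACAGTG at 26.0% of summits against 10.9% of flanks (adjusted exact p = 8.50e-08). With 5-base words 9 of 10 passed, and CAGTG had the highest ratio: 252 of 430 summits (58.6%, 53.8 to 63.3) against 117 flanks (27.2%, 23.1 to 31.7), a ratio of 4.03 (adjusted exact p = 1.65e-19). The 5-base length was chosen after the longer words had been seen on these same arms. Its p-values therefore do not come from untouched sites. ACAGTGAA was not called in the sites kept without replicate 2 or without replicate 3, which left 0 words in each case (smallest adjusted exact p = 0.0647 and 0.0694). Without replicate 1 CACAGTGG, which also contains CAGTG, was called in its place. Sites kept without a replicate are retained sites found among the best peaks of both others, with their pooled summits unchanged. In such sets CAGTG kept a ratio of 3.54 to 3.78.

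Over all 644 sites, 364 (56.5%, 52.6 to 60.4) had CAGTG within 100 bp of the summit, against 177 (27.5%, 24.1 to 31.1) in the flank away from the TSS and 192 (29.8%) in the flank toward it. Of all 200 bp stretches of intronic sequence that meet the position rule, 28.2% held the word, so both flanks were near the level of such introns in general. At least 2 copies stood at 128 summits (19.9%) and in 34 flanks (5.28%). The classes of sites were set side by side and their test results are left out. The word was singled out by its ratio on the arms used to test words, 3L, 3R, 4 and X. On those arms it was at 58.6% of intronic sites, 39.9% of candidates in the same kind of intron that the authors did not retain, 49.0% of promoter sites and 53.8% of intronic sites beyond 5 kb. Words were first ranked on the intronic sites of 2L and 2R, so neither set of arms was free of the choice. On 2L and 2R the shares were 52.3% of intronic sites (45.4 to 59.2) and 48.3% of promoter sites (44.4 to 52.1), whose intervals overlap. Unretained candidates there had 37.4% and intronic sites beyond 5 kb 62%. The intronic sites stood above unretained candidates and promoter sites on both sets of arms, and above the sites beyond 5 kb on 1 of the sets only. In a window of 50 bp on either side of the summit the word was at 26.5% of intronic sites on 3L, 3R, 4 and X, with odds ratios of 1.16 against unretained candidates and 0.915 against promoter sites, where the 200 bp window gave 2.13 and 1.47.

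Where the word stood relative to the summit was described after it had been seen and was not tested. At intronic sites the density of the word was 2.73 copies per kb per site within 25 bp of the summit, 4.88 at 50 to 75 bp, 4.94 at 75 to 100 bp, and 1.62 beyond 300 bp. At promoter sites, averaged over both sides, it was 3.64 copies per kb within 25 bp, 3.33 at 50 to 75 bp and 2.98 at 75 to 100 bp. By side, the promoter sites had their maximum on the side of the TSS, with 4.43 copies per kb at 25 to 50 bp, against 3.23 in the 25 bp away from the TSS. Unretained intronic candidates stayed between 2.27 and 2.83 copies per kb over the same range. GC content at intronic sites was 34.7% within 25 bp and 40.1% at 75 to 100 bp, and at promoter sites 38.4% and 38.5%. Copies on both sides of the summit, each 25 to 125 bp away, were found at 103 of 644 intronic sites (16.0%, 13.2 to 19.1) and 126 of 1724 promoter sites (7.31%, 6.12 to 8.64), beside 5.65% of unretained intronic candidates. Around the flank centres of the intronic sites that share was 2.17%.

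The densities were also computed in each replicate on its own. Every replicate's candidate list was brought to its 3123 highest-signal peaks, the length of the retained list, and its own summits were used. In these lists, intronic sites of the same kind had 3.59 copies per kb at 50 to 125 bp in replicate 1, 4.60 in replicate 2 and 3.55 in replicate 3. Within 50 bp the densities were 3.39, 3.05 and 3.19 copies per kb in replicates 1, 2 and 3. The difference was small in replicates 1 and 3 and clear in replicate 2, and it was not tested, while promoter sites had the higher density at the summit in all 3. The means at intronic sites were 3.91 ± 0.595 copies per kb at 50 to 125 bp and 3.21 ± 0.169 within 50 bp (SD, n = 3). The share of intronic sites with the word in the 200 bp window was 53.3%, 55.8% and 49.8% in replicates 1, 2 and 3. It averaged 52.97% ± 3.01 at the summits and 29.1% ± 0.569 in the flanks (SD, n = 3). With the sites divided by signal into 4 groups of 161, it was 6.05 copies per kb at 50 to 125 bp in the highest group, and 3.85, 4.18 and 2.82 in the following groups, so the middle groups were out of order, while the density within 50 bp lay between 2.98 and 3.60 in all 4. In the group with the lowest signal the word was thus denser within 50 bp, at 3.60, than outside it.

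**Figure D1:**
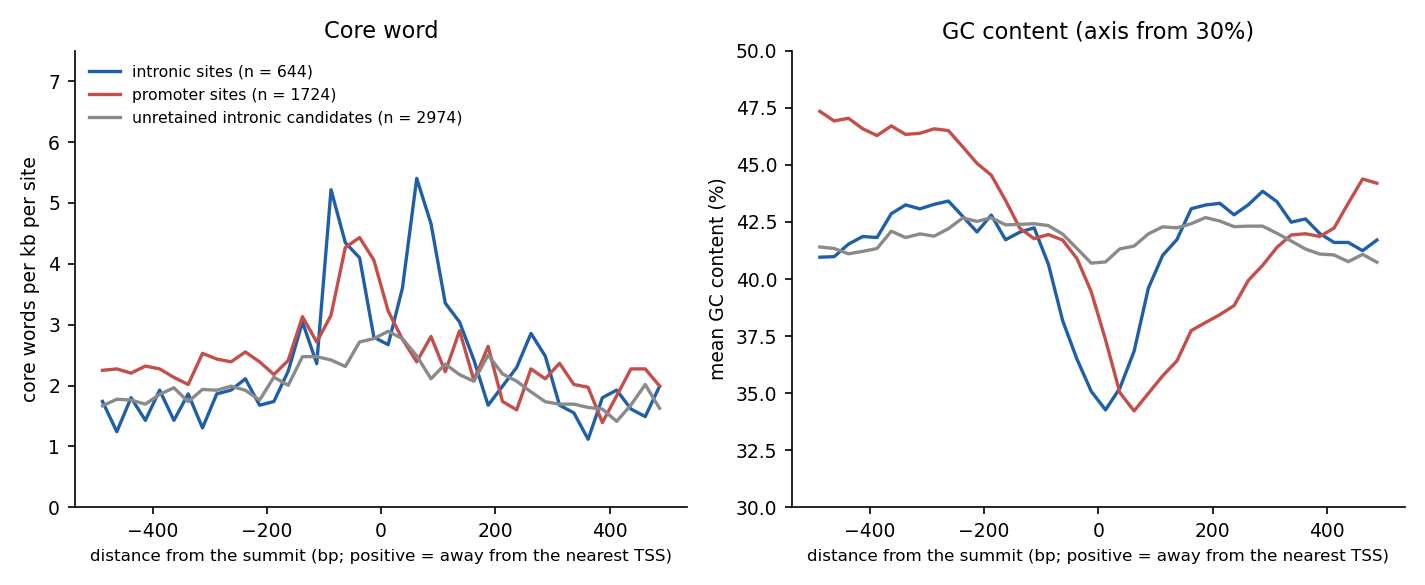
Density of the word CAGTG, either strand (left, copies per kb per site), and mean GC content (right, %, axis from 30%) in 25 bp bins by distance from the summit, for intronic sites, promoter sites and unretained intronic candidates, with positive distances away from the nearest TSS. Intronic sites show a maximum on each side of the summit and their lowest GC content at the summit, promoter sites a single maximum on the side of the TSS.

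Known motifs of promoters, insulators and enhancers were not called at the intronic summits against their flanks. Of 19 motifs tested, 0 differed between summit and flank (exact McNemar test; 0 had an unadjusted p under 0.05, and the smallest adjusted p was 0.986). Trl, the GAGA factor, binds GAGAGA, which stood at 13.2% of intronic summits and in 11.6% of flanks, beside 7.50% of all 200 bp stretches of such introns. The CTCF core, the site of an insulator protein, was at 1.55% and 1.24%, and the Zelda site CAGGTAG, read by the factor that opens the early embryonic genome, at 1.24% and 0.776%. The others were core promoter motif 6, the E-box CACGTG, the TATA box (TATAAA after C or G), the initiator (TCAGT before C or T), the Su(Hw) core GCATACTT, AP-1 (TGA, C or G, TCA), CRE (TGACGTCA), TAATTA of homeodomain proteins, Mef2 and the repeat CACACACA, with those named below, all searched on both strands. Against unretained intronic candidates 0 of 19 motifs were called (Fisher's exact test; 1, GAGAGA, had an unadjusted p under 0.05), although with a 300 bp window GAGAGA was called at 21.4% against 15% (odds ratio 1.55, adjusted exact p = 0.00173). Against intronic sites beyond 5 kb 0 of 19 were called and 0 had an unadjusted p under 0.05.

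Between intronic and promoter sites 7 of 19 motifs were called. These classes were divided by distance to a TSS, and promoters without a retained site were not compared. The tests therefore cannot tell a trait of the binding sites from a difference between promoters and introns in general. The DNA replication-related element TATCGATA, bound by the promoter factor Dref and by BEAF-32, stood at 1 of 644 intronic summits (0.155%) and 148 of 1724 promoter summits (8.58%; odds ratio 0.0166, 95% interval 0.00494 to 0.124, Fisher's exact adjusted p = 2.59e-19). Its inner part CGATA, which overlaps it, was at 21.4% and 41.4% (odds ratio 0.386, adjusted exact p = 2.15e-19). The share of 20.6% in all such intronic stretches was close to that at the intronic summits. Core promoter motif 7 was at 1.86% of intronic and 13.4% of promoter summits (odds ratio 0.123, adjusted exact p = 1.63e-19). Core promoter motif 1, bound by M1BP, was at 0 of 644 intronic summits and 2.96% of promoter summits (adjusted exact p = 7.57e-07). The E-box CAGCTG was at 8.85% and 14.4% (odds ratio 0.575, adjusted exact p = 0.000957). GAGAGA went the other way, at 13.2% of intronic and 8.58% of promoter summits (odds ratio 1.62, 1.22 to 2.15, adjusted exact p = 0.00347), and so did the site of GATA factors (GATAAG after A or T), at 8.85% and 6.03% (odds ratio 1.51, 1.09 to 2.12, adjusted exact p = 0.0465). The GATA call was lost with windows of 100 or 300 bp, in the 329 sites from the upper part of the list by signal, and with a lower limit of 1000 bp, and the GAGAGA call with the limit of 1000 bp only. In the replicates' own best peaks the element TATCGATA was at 0.763%, 0.312% and 0.153% of intronic summits in replicates 1, 2 and 3, against 7.82%, 8.51% and 8.44% of promoter summits. Motif 7 was at 2.00% ± 0.330 of intronic and 12.3% ± 1.62 of promoter summits (SD, n = 3). All of these shares count letters in a window, and none shows that a factor was bound.

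The rule admits summits up to 5 kb from a TSS of any protein-coding gene, so the distances given here are a description within that range. The median distance of the intronic sites to the nearest TSS was 1536.5 bp (quartiles 924 and 2789.5), and 193 of 644 (30%) lay within 1 kb, 200 between 1 and 2 kb, 104 between 2 and 3 kb, 93 between 3 and 4 kb and 54 (8.39%) beyond 4 kb. The 2974 unretained candidates that meet the same position rule had a median of 1816.5 bp, with 24.0% within 1 kb and 11.1% beyond 4 kb. Sites within 2 kb made up 61.0% of the intronic sites and 54.8% of the unretained candidates, and no test is given since distance was part of the rule. Downstream of that TSS, in the direction of its transcription, lay 431 intronic sites (66.9%, 63.1 to 70.6), against 69.0% of unretained candidates. At the lower limit the members nearest to it were in CG10663/CG33725 and Pitslre, at 506 and 507 bp, and the intronic summits just outside were in bun and CG12746, at 500 and 498 bp. At the upper limit the members were in tara and ush, at 4983 and 4964 bp, and the sites just outside in Ac13E and Psc, at 5001 and 5034 bp.

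**Figure D2:**
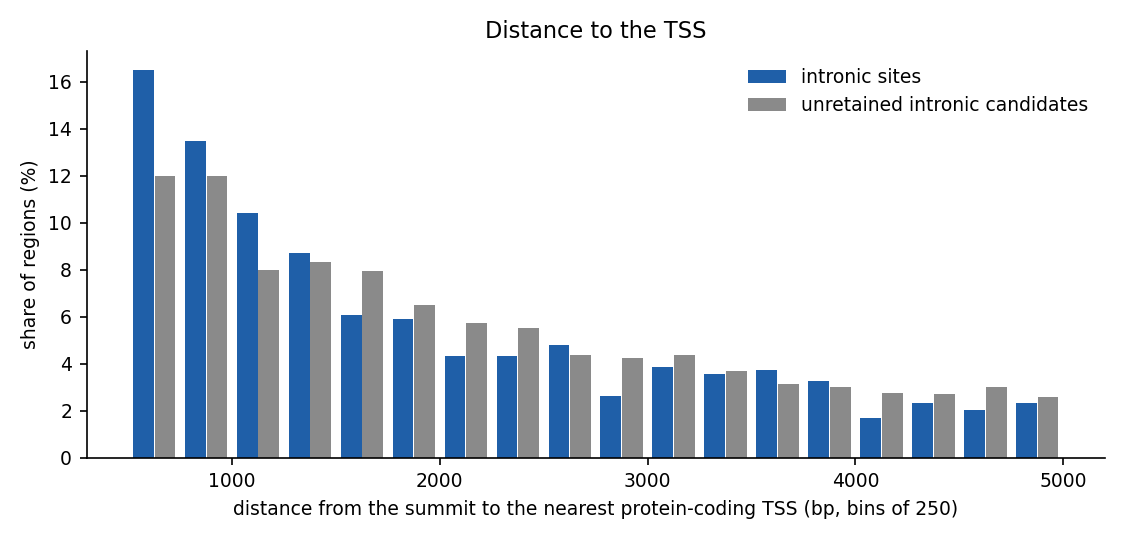
Share of regions (%) in 250 bp bins of the distance between the summit and the nearest protein-coding TSS, for 644 intronic sites and 2974 unretained intronic candidates. Both fall with distance, and the intronic sites have the larger share within 1 kb, 30% against 24.0%.

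The opening intron held most of them. In the first intron of at least 1 transcript of a host gene lay 527 of 644 sites (81.8%), against 2051 of 2974 unretained candidates (69.0%; odds ratio 2.03, 1.63 to 2.50, Fisher's exact adjusted p = 4.32e-11). In the replicates' own best peaks the share was 81.8%, 79.6% and 81.9% in replicates 1, 2 and 3. A further 88 sites were in an intron no earlier than the second, 12 than the third, and 17 in later ones. The introns were long, with a median of 7540 bp (quartiles 3200 and 15657) for the intronic sites and 6426.5 bp for the unretained candidates. The nearest TSS belonged to the host gene at 88.8% of sites against 83.8% of candidates (odds ratio 1.54, 1.18 to 1.99, adjusted exact p = 0.00220), which left 72 sites closer to the start of another gene than to that of their host. A noncoding transcript started within 500 bp of 2.64% and 3.19% (odds ratio 0.822, adjusted exact p = 0.531). Both the first intron and the nearest TSS are linked to distance, which was part of the rule. That distance was shorter at the intronic sites (median 1536.5 against 1816.5 bp), and the tests were not matched for it. The share of first introns in all eligible sequence is not given here.

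Nearby retained summits were counted for both kinds of region. Another retained summit was within 2 kb of 225 of 644 sites (34.9%), against 593 of 2974 unretained candidates (19.9%). Unretained candidates were defined as overlapping no retained peak, while 38 of the intronic sites (5.90%) overlapped another one, and with overlapping peaks joined the share of intronic sites was 30.9%. The difference is thus partly set by that definition. Its test result is left out, although the feature was among the 6 position features adjusted together. The nearest TSS itself had a retained summit within 500 bp at 127 sites (19.7%) and 504 candidates (16.9%), which was not called (odds ratio 1.20, 0.972 to 1.50, Fisher's exact adjusted p = 0.116). That feature was called in the sites kept without replicate 1 (odds ratio 1.63, adjusted exact p = 0.00168), without replicate 2 (1.60, 0.00125) and without replicate 3 (1.73, 0.000211). In these settings the retained summits counted were cut in the same way, while the candidates stayed those of the full list. The share of intronic sites was then lower, at 16.6%, 18.2% and 17.2% without replicates 1, 2 and 3. It was not called with overlapping peaks joined (odds ratio 1.11, adjusted exact p = 0.448) or with a lower limit of 1000 bp (1.06, 0.636). The definition of unretained candidates, which overlap no retained peak, bears on this feature as well. These p-values treat neighbouring regions as independent and measure the spread between regions, not between embryos.

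**Figure D3:**
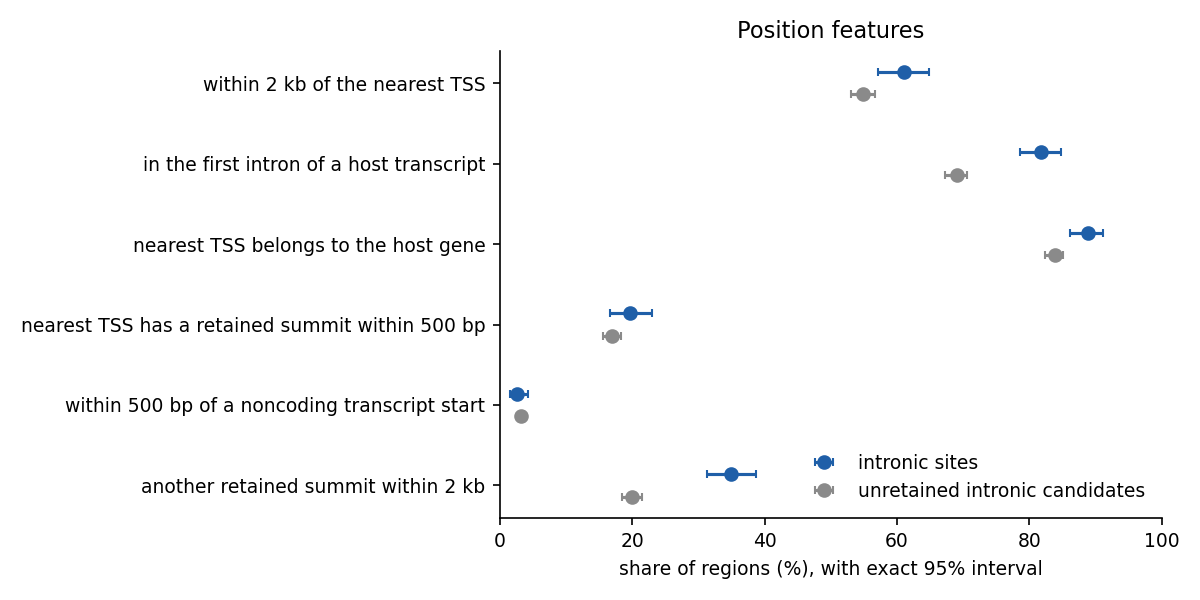
Share of regions (%) with each of 6 position features, with exact 95% intervals, for 644 intronic sites and 2974 unretained intronic candidates. The intronic sites stand above the candidates for the first intron, 81.8% against 69.0%, and for another retained summit within 2 kb, 34.9% against 19.9%, a difference partly set by how candidates were defined, while the noncoding starts overlap at 2.64% and 3.19%.

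The strongest sites are given with their values in each replicate. Signal is the authors' value per peak, given by their peak caller, and serves here only to rank peaks within a list. The strongest was in the long opening intron of ush, a zinc finger cofactor of GATA factors (FBgn0003963, summit at 2L 481093, signal 2470). It had signals of 772, 1025 and 684 and was ranked 3 in replicates 1, 2 and 3 alike, and the nearest TSS was not that of ush but that of cbt, which encodes another zinc finger regulator, 1405 bp away. An intron of CG11050 (2L 6612719, 1032 bp from the TSS) followed with 607, 892 and 567, ranked 4 in every replicate. Lk6, a kinase that acts on the translation initiation factor eIF4E (3R 11761055, 976 bp), had 502, 774 and 395 and ranks 8, 9 and 14. CG32772 (X 4910378, 1276 bp) had 381, 690 and 375, and CG9663 (2L 3302184, 946 bp) 432, 561 and 386. At all 5 the highest value was that of replicate 2. Over the 20 strongest sites replicate 2 had the highest value at 19, and over the 632 sites with a candidate in every replicate at 447, so the level of a value cannot be compared between replicates and ranks were used.

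**Figure D4:**
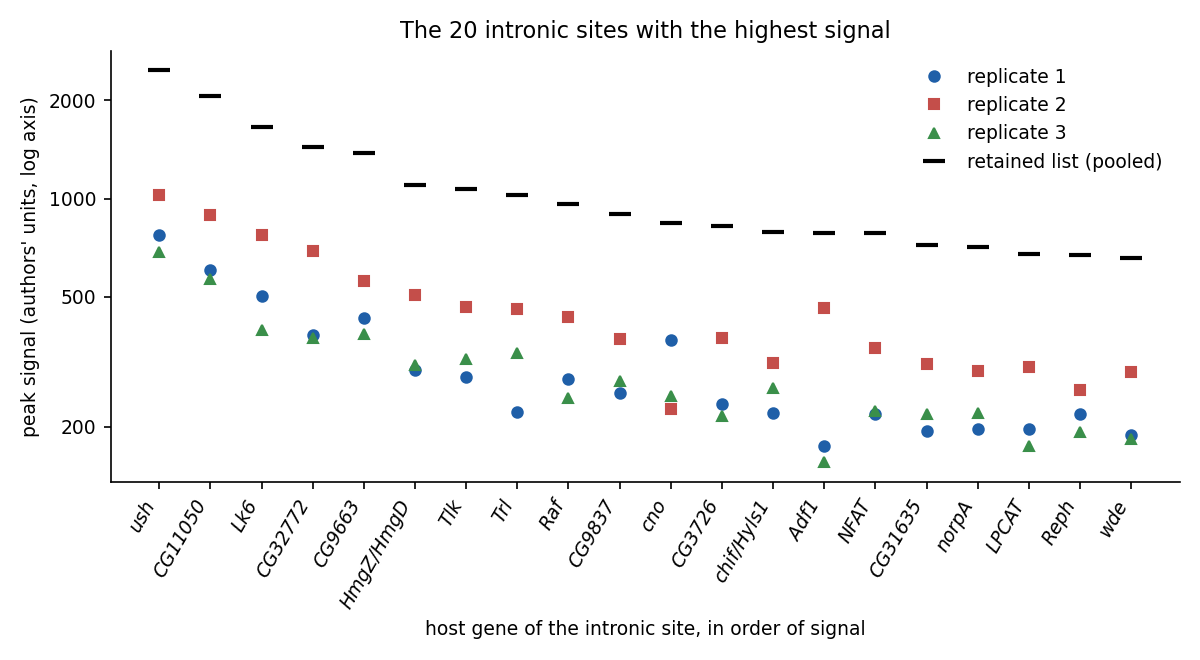
Signal of the 20 intronic sites with the highest signal (log axis, authors' units), with 1 point per replicate and a bar for the pooled retained list. Replicate 2 is highest at 19 of 20 sites, the exception being cno, and the pooled values lie above all 3 replicates.

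Ranks of the following sites are given in replicates 1, 2 and 3. A summit in introns of both HmgZ and HmgD, genes for high mobility group proteins that bend DNA (2R 21703388, signal 1099), was ranked 29 in all 3 replicates. Tlk, the Tousled-like kinase of chromatin assembly (X 3742224, signal 1068), had ranks 37, 36 and 27. Trl, which encodes the GAGA factor (3L 14759501, signal 1026), had ranks 69, 40 and 23. Raf (X 2297730, signal 960) had 39, 47 and 67. The site in CG9837 (3R 8811686, signal 898) had 50, 65 and 43. The site in cno, the gene of the junction protein Canoe (3R 5215537, signal 844), varied more, with signals of 369, 226 and 248 and ranks 17, 177 and 64. Adf1, a transcription factor gene (2R 6663043, signal 784), varied in the other sense, with 175, 464 and 156 and ranks 113, 38 and 195. The rest of the 20 were in CG3726, chif/Hyls1, NFAT, CG31635, norpA (the phospholipase C of phototransduction), LPCAT, Reph and wde, with signals of 659 to 824. No rank among these 20 was worse than 195 in any replicate, 17 of 20 were in a first intron, 10 of 20 had CAGTG within 100 bp, and their distances ran from 551 to 2327 bp.

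The whole set spanned a wide range of signal. Its median was 191 (quartiles 151 and 271) and its range 126 to 2470, next to medians of 193 at promoter sites and 175 at intronic sites beyond 5 kb. Among the top 300 peaks by signal 64 (21.3%) were intronic sites of this kind, which is near their share of the whole list. Of 3694 pooled candidates that meet the position rule 644 were retained (17.4%), beside 16.3% of all 19204 pooled candidates. The lowest members, in Wnt4, CG18135 and CycE, had signals of 126.31, 126.29 and 126.28, and the highest unretained candidates, in tn, Tak1 and Reck, had 126.14, 126.13 and 126.13, so the values on either side of the limit were next to each other.

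How far the sites recurred between replicates depended on that signal. Among the 3123 best peaks of each replicate, 531 of 644 sites (82.5%) were held by replicate 1, 545 (84.6%) by replicate 2 and 520 (80.7%) by replicate 3, on average 82.6% ± 1.95 (SD, n = 3). All 3 replicates held 388 sites (60.2%, 56.4 to 64.1), next to 60.8% of promoter sites and 47.9% of intronic sites beyond 5 kb. Of the 4 groups of 161 sites by signal, the highest had 161 in all 3 lists, the following had 140 (87.0%) and 76 (47.2%), and the lowest had 11 (6.83%). The retained list comes from the pooled alignments of the same replicates, so these shares are partly built in. Found in 0 of the best lists were 3 sites, in CG3764, dco and apt, named after their values were seen. In the full candidate lists 640, 636 and 643 sites had an overlapping candidate in replicates 1, 2 and 3. A candidate in 1 replicate only was found for 1 site. This was the second summit in CG9663, 200 bp from the strong one, which had a signal of 151 and rank 207 in replicate 3 and no candidate in replicates 1 and 2.

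The 644 sites fell in 510 genes, of which 388 had 1 site, 96 had 2 and 26 had 3 or more. A site counts for each protein-coding gene that holds it, and 36 sites had 2 such hosts and 2 had 3 or more. Of 9174 protein-coding genes with intronic sequence that meets the position rule, 5.56% hosted a site. That share rose with the length of such sequence. With the genes divided by that length into 4 groups, it was 0 of 2294 genes with up to 124 bp, 0.262% and 4.10% in the following groups, and 17.9% of 2293 genes with at least 2680 bp. Hosts had a median of 6222 bp of it and other genes 395 bp. A retained summit within 500 bp of one of their TSS was present in 188 of 510 host genes (36.9%, 32.7 to 41.2), beside 19.2% of all 9174. A gene counted where any of its transcript starts had such a summit. The shares were not matched for gene length or number of starts, and their difference was not tested.

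Several genes carried a row of sites. CHES-1-like, a forkhead transcription factor gene on X, had 9, spread from 2.34 to 18.6 kb from the 5′ end of the gene. Each lay in the first intron of at least 1 of its transcripts. The strongest of them (X 7698426, signal 410) had 95.6, 178 and 135 in replicates 1, 2 and 3, and the weakest (X 7701769, signal 134) had 31.7, 67.5 and 46.3. All 3 replicates held 5 of the 9 among their best peaks, and 5 of the 9 had CAGTG within 100 bp. CG1677, a gene of 125 kb on X, also had 9, with signals of 140 to 318. At its site at X 7293781 the ranks were 522 and 540 in replicates 1 and 2 and 9619 in replicate 3, so that replicate 3 stood apart. The CG1677 site at X 7338815 (signal 152) also lay in CBP, a gene within CG1677. The zinc finger gene shn, a regulator in Dpp (BMP) signalling on 2R, had 9 with signals of 127 to 301, of which 8 had CAGTG. A pair of these, at 11194779 and 11194978, overlapped and matched the same peak in each replicate, so they count as 1 site there. In ush 5 sites were found, 5 of 5 in all 3 replicates.

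Genes with 4 sites were CG14434, Dys (the dystrophin gene), HmgZ, NFAT, Tlk and kirre, which encodes an adhesion protein of muscle founder cells. In kirre the sites at X 2786766 and 2787534 (signals 423 and 209) are also the 2 sites of CG32795, a gene within kirre. The 4 in NFAT included 2 near each other, at X 13640532 and 13641245, with signals of 783 and 524 and all ranks at 230 or better. In CG14434 the summits at X 6859888 and 6860088 match the same peak in each replicate, with signals of 61.7, 99.2 and 82.4 in replicates 1, 2 and 3. In HmgZ the summits at 21703388 and 21703587 share 1 peak in replicate 2, with a signal of 506. In Dys the site at 3R 19464412 had no candidate in replicate 2, and the highest of its 4 signals was 187. The 16 genes with 3 sites were CG32264, CG42674, CG43658, CG9837, HmgD, Raf, Shrm, Socs36E, Trl, apt, crp, drongo, msn, sbb, sick and tou. Their highest signals ran from 159 in Socs36E, an inhibitor of JAK-STAT signalling, to 1099 in HmgD. The 3 sites of HmgD are also sites of HmgZ, since they lie in introns of both genes.

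**Figure D5:**
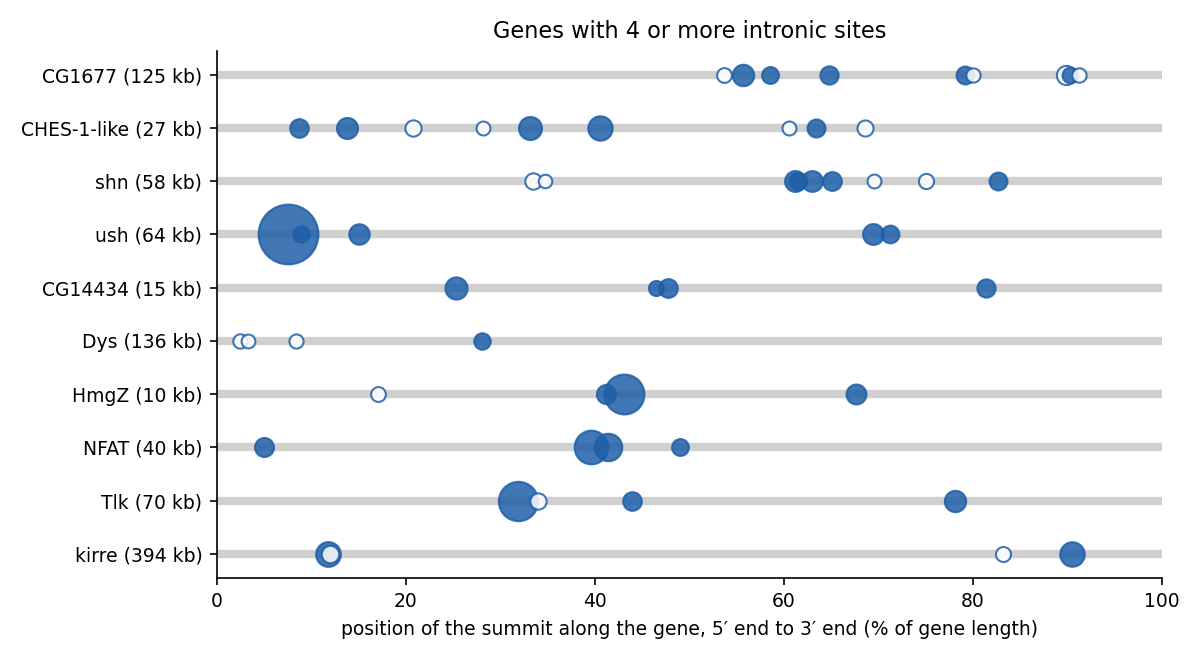
Position of the intronic sites along the 10 genes with 4 or more, as % of gene length from the 5′ end, with circle area in proportion to signal. Filled circles are sites found among the best peaks of all 3 replicates and open circles are sites found in fewer, and 9 sites each were found in CG1677, CHES-1-like and shn.

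Host genes were grouped in 26 lists by function, and a list's share is read beside the 5.56% of all genes and the length of its eligible intronic sequence, since no set test was run. For lists with a median above 2680 bp, the 17.9% of hosts among genes with at least that length is the nearer comparison. That group runs up to 98228 bp, so lists within it were not matched for length. For lists with a median of 454 to 2676 bp the nearer comparison is the 4.10% of hosts among genes in that range. The lists were chosen with earlier results of these data known, so an excess of hosts cannot be read from their shares. Together, 510 of the listed genes had eligible sequence and 96 of them (18.8%) hosted a site. Among transcription factors with broad roles 19 of 38 did (50%), with a median of 10.3 kb of eligible sequence. NFAT (signal 783), crp, the AP-4 homologue (308), and shn (301) were highest. RNA-binding proteins and splicing regulators followed with 13 of 32 (40.6%, median 6.86 kb). There the highest were mub (508), brat, the translational repressor of the embryo (401), and shep (362). Both medians lie among the genes with the most eligible sequence, of which 17.9% were hosts. Circadian clock genes gave 4 of 11 (36.4%, median 2.49 kb), led by Pdp1 (300), the kinase gene sgg (179) and cwo (156).

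The lists of signalling pathways gave the following counts. The receptor tyrosine kinase pathway had 10 of 28 genes as hosts (35.7%, median 4.18 kb). The cytoplasmic kinase Raf (signal 960), the insulin receptor InR (564) and the secreted inhibitor aos (460) were highest. The site in InR lay 649 bp from a TSS (3R 21590840), and that in aos at 3098 bp. The aos site also lies in CG33158. Stress kinase and apoptosis genes gave 6 of 18 (33.3%, median 3.07 kb), led by the kinases Mekk1 (470) and msn (295) and by egr, the fly TNF (277). Hippo pathway genes gave 5 of 17 (29.4%, median 3.34 kb), with the scaffold kibra (209), crb (171) and the kinase wts (153). Hedgehog genes gave 3 of 11 (27.3%, median 3.84 kb), with the receptor ptc (215), ttv (185) and boi (142). JAK-STAT genes gave 3 of 11 (27.3%, median 2.11 kb), with the phosphatase Ptp61F (176), Socs36E (159) and the transcription factor Stat92E (126). In the BMP and activin pathway 4 of 18 (22.2%, median 2.78 kb) were hosts, with the transducer Mad (411), shn (301) and the receptor wit (258). Wnt genes gave 4 of 21 (19.0%, median 5.42 kb), with sgg (179), the secreted inhibitor Notum (163) and the receptor fz (140), and the insulin and TOR pathway also 4 of 21 (median 1.33 kb), with Lk6 (1663), InR (564) and ImpL2, which binds insulin-like peptides (378). Notch pathway genes gave 2 of 15 (13.3%, median 3.88 kb), neur (377) and mam (322). Immune and Toll genes gave 1 of 16 (6.25%, median 2.26 kb), PGRP-LB (220), whose site also lies in CG17230.

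Genes of cell structure, of excitable cells and of chromatin come next. The cytoskeleton list had 6 of 25 (24.0%, median 5.32 kb), with the cofilin gene tsr (372), RhoGEF64C (305) and ena (296). Cell adhesion genes gave 5 of 29 (17.2%, median 4.29 kb), with the integrin gene mew (220), the talin gene rhea (185) and dlg1 (171). Axon guidance genes gave 4 of 25 (16.0%, median 4.45 kb), with ena (296), trio (181) and NetB (174). Ion channel and synapse genes gave 1 of 27, Ih (142), at a median of 5.02 kb. Their 3.70% is below the share of all genes and below the 17.9% of genes with at least 2680 bp. Among chromatin genes the Polycomb and trithorax lists gave 6 of 36 (16.7%, median 0.9085 kb), with Trl (1026), trx (578) and tara (351), and insulator genes 1 of 14 (7.14%, median 0.355 kb), Trl. Nuclear receptor and ecdysone genes gave 3 of 17 (17.6%, median 10.785 kb), with Hr3 (362), br (280) and Eip75B (203). The Hr3 site also lies in CG12912.

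The remaining 6 lists held 2 hosts or none. Cell cycle genes gave 2 of 21 (9.52%), E2f1 (179) and CycE (126), at a median of 0.752 kb. Embryonic patterning genes gave 2 of 26 (7.69%), the muscle regulator Mef2 (277) and the Hox gene Antp (158), at 3.31 kb. The Antp site also lies in CG46458. Autophagy and lysosome genes gave 0 of 18, translation and ribosome genes 0 of 15, chemosensory receptor genes 0 of 14 and cuticle genes 0 of 10. Their median eligible sequence was 0.4915, 0.447, 0.2285 and 1.69 kb. CG1647 itself (FBgn0039602, 3R 28820221 to 28824508) has 128 bp of eligible sequence and hosted 0 sites, and the nearest retained summit was 283 bp from its 5′ end.

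Along the chromosome arms, 165 sites were on X, 150 on 3R, 115 on 3L, 109 on 2R, 105 on 2L and 0 on the small chromosome 4. Relative to eligible intronic sequence, of which the 6 arms hold 21.2 Mb, X had 38.3 sites per Mb and the other large arms 27.4 to 31.6. Unretained candidates went the other way, with 108 per Mb on X and 140 to 157 per Mb on the other large arms. Both are descriptions of peak calls that used signal, and no test was made.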

How the data were processed

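Per the labels, ChIP-seq was done with an anti-GFP antibody on 3 biological replicates of CG1647-GFP embryos of 0 to 24 h. The authors deposited dm6 peak lists: candidates per replicate, candidates for pooled replicates, and the list past an irreproducible discovery rate threshold, called retained here. Each deposited list gives a signal value and the −log10 of the q-value per peak; signal ranked peaks here, and all 3123 retained peaks stand in the pooled list. The identity of the aligner and peak caller, like the threshold, is not given in the sources used here. Read counts were not used, so depth is unknown and intervals cover counting error over regions only.

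Summits were placed in Ensembl release 115 gene models and RefSeq sequence of release 6, on 6 arms. Unretained candidates are pooled peaks that overlap no retained peak. A site was found in a replicate where at least 1 bp overlapped. Motifs were searched on both strands in 200 bp. Tests were two-sided: exact McNemar between summit and flank (ratios with 0.5 added to each count) and Fisher's exact between classes (Woolf intervals with 0.5 added), adjusted by Benjamini-Hochberg within each family of 19 motifs, 10 words or 6 position features, at 0.05. Both were run on simulated windows with 1 planted word and the same base composition on both sides. The real windows differed in composition, with a median GC content of 36.5% at intronic summits and 40.5% in flanks. The simulation therefore does not show how the tests behave under such a difference. Shares have exact 95% Clopper-Pearson intervals. Members, motifs and lists were chosen with earlier results of these data known. Named genes are the hosts of the 20 highest-signal sites, those with 3 or more sites, up to 3 hosts per list by signal, and those at the limits of the rule, with CG1647. Of the listed symbols 579 genes were matched, 17 entries under another name, and 1 was not. Python 3.11.15 with NumPy 2.4.6, SciPy 1.17.1 and Matplotlib 3.10.9 was used. Alternatives were other limits, windows, flanks, TSS sets, overlaps and word lengths, the upper part of the list by signal, and leaving out each replicate by keeping retained peaks found among the best peaks of both others.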

Additional observations from a re-analysis of the deposited data

How the results depend on the processing

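Of 176 alternative values, 150 kept their direction, their side of the threshold or, for counts, stayed within 1.5 times. These include the features and ratios whose test results are left out above. In the upper part of the retained list by signal (0.5 of its peaks) there were 329 intronic sites, of which 92.7% were found in all 3 replicates. That share was 55.7% when at least 50% of the peak had to be covered and 98.1% over all candidates of each replicate. Leaving out a replicate kept 444 to 454 sites. Against unretained candidates 1 motif was called with a 300 bp window. The number of words called was 4 with 6-base words, 4 with the flank toward the TSS and 9 with 5-base words, and 0 to 1 when a replicate was left out. The odds ratio of CAGTG with a 100 bp window was 1.16 against unretained candidates and 0.915 against promoter sites, and against intronic sites beyond 5 kb it was 0.890 to 1.15 when a replicate was left out. No test is drawn from these 3 ratios, since the word was singled out on the same arms. That of noncoding starts was 0.914 to 1.11 when a replicate was left out (1.11 without replicate 3) and was not called. Between intronic and promoter sites Mef2 and CACACACA were called too without replicate 1, core promoter motif 6, Mef2 and CACACACA with the 300 bp window, and AP-1 (odds ratio 2.53, adjusted exact p = 0.00812) with a lower limit of 1000 bp. In that upper part the retained summits counted near a TSS were cut too, and 12.5% of intronic sites had one at the nearest TSS. The TSS with a retained summit was called in that upper part (1.61) and with TSS of all biotypes (1.32) as well. It was not called with overlapping peaks joined (1.11) or with a lower limit of 1000 bp (1.06). The causes were not tested. With TSS of all biotypes the feature of noncoding starts gave no value, since that rule leaves no such region. Sites kept without a replicate are mostly those of higher signal, because both others must hold them. Their summits and signals still come from the pooled list, so no replicate's reads were removed. The 5-base words and all alternatives for CAGTG were chosen after seeing the data. No paired analysis was possible because the samples form 1 group. The unknown depth limits what the absence of a candidate in 1 replicate can show.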

Other observations

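Intronic sites beyond 5 kb and intergenic sites, which belong to no comparison of the layout above, are given with the density of the word CAGTG. At the 282 intronic sites beyond 5 kb its density was 1.56 copies per kb per site within 25 bp of the summit and 5.39 at 75 to 100 bp. At the 367 intergenic sites it was 3.05 within 25 bp, 4.63 at 50 to 75 bp and 4.03 at 75 to 100 bp. GC content within 25 bp was 34.1% beyond 5 kb and 36.4% at intergenic sites. These values were looked up after the layout at intronic sites had been seen, and no test was made.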
